A study of Mus musculus with 12 samples.

Results

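The genes described here are 10 transcription factors of the cardiac lineage, Gata4, Gata6, Nkx2-5, Tbx5, Tbx20, Mef2a, Mef2c, Mef2d, Hand2 and Prox1, taken by gene symbol from the 22915 genes of the deposited expression table. Primary cardiomyocytes of adult male C57/Bl6 mice, 12 weeks of age, were kept under normoxia for 24 h with 1 of 3 cytokines or with PBS, in which the proteins were dissolved. The cytokines were mLIF (mouse leukemia inhibitory factor), mOSM (mouse oncostatin M) and hlOSM, an oncostatin M engineered to act like the human protein. Each of the 4 conditions had 3 sequencing libraries of total RNA, which makes 12, and the summed normalized counts of a library lay between 2745748 and 2911891. The labels give a cytokine concentration of 25 ng/ml, the study's methods a lower concentration, and neither says whether libraries with the same number came from the same preparation of cells. No genetic change was made in any group, so the conditions differed in the protein added. In mouse cells mLIF acts through the LIF receptor and mOSM through the oncostatin M receptor, whereas hlOSM was built to use both, and the comparisons ask what each route does to the factors that define the cardiomyocyte.

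These factors hold the gene program of the heart muscle cell in place. GATA4 and GATA6 are zinc finger proteins, NKX2-5 is a homeodomain protein, TBX5 and TBX20 bind DNA through a T-box, the MEF2 proteins through a MADS box, HAND2 is a basic helix-loop-helix protein and PROX1 is a divergent homeodomain protein. They act together at the enhancers of genes for the sarcomere, calcium handling and conduction, and several of them raise one another's transcription in the developing heart. Several of the 10 are not made by cardiomyocytes alone. GATA4, GATA6, TBX20 and HAND2 are also found in cardiac fibroblasts, and MEF2 proteins in endothelium and smooth muscle. PROX1 is the factor that sets lymphatic endothelial identity.

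The label of the cells was checked against marker genes. Cardiomyocyte genes were strongly present, with Ttn, which encodes the giant sarcomere protein titin, between 32687 and 33150 normalized counts in PBS and Ryr2, the calcium release channel gene, between 5777 and 6228. Of the atrial genes, Myl7 and Sln had at most 4 normalized counts in any library. Nppa had 179 to 192 and Myl4 42 to 61 in PBS, and whether atrial cells gave this RNA was not tested. The fibroblast gene Col1a2 (485 ± 76.0 SD in PBS, n = 3) and the endothelial gene Kdr (382 ± 12.5 SD, n = 3) were present. The cultures thus also held RNA of other heart cells. All 10 factors passed the filter on low values (at least 10 normalized counts in at least 3 libraries), as did 13184 genes in all.

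Levels of different genes were set side by side per kilobase of annotated exon, the union over all transcripts of a gene. This union can be longer than the transcripts that the cells make, which lowers the value per kb. The order of genes therefore depends on it. In PBS the highest was Gata4 with 100.9 ± 4.07 (SD, n = 3) normalized counts per kb, followed by Mef2d with 97.0 ± 5.93 and Mef2a with 90.8 ± 3.12. The spread of Mef2d overlapped those of Gata4 and Mef2a, which did not overlap each other. Each of the 3 stood in the upper part of the tested genes, Gata4 at percentile 90.1. Hand2 (72.9 ± 3.95 per kb) and Nkx2-5 (68.3 ± 4.88 per kb) came next and could not be separated by their spread. Tbx5 and Tbx20 were level at 55.3 ± 1.42 and 55.2 ± 2.66 per kb. Mef2c (42.9 ± 2.74 per kb), Prox1 (40.5 ± 1.98 per kb) and Gata6 (38.5 ± 1.85 per kb) closed the order with overlapping spreads. After hlOSM the means stood in another order, with Mef2d above Gata4 and Nkx2-5 above Hand2, both within their spreads, and Prox1 was at 55.1 ± 4.97 per kb and Mef2c at 25.2 ± 1.30 per kb.

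Against PBS, each cytokine was tested gene by gene with limma on log2(normalized count + 1), so that fold changes are on that scale, and a gene is said to rise or fall where the Benjamini-Hochberg adjusted p over all 13184 genes was under 0.05. With mLIF, 3 of the 10 factors fell, against 4.44% of all genes tested, and 0 rose, against 5.47%. The 3 were Mef2a, Mef2c and Hand2. With mOSM, 7 fell (15.8% of all genes) and 1 rose (15.4%). With hlOSM, 6 fell (19.8% of all genes) and 1 rose (18.2%). The factor that rose with both was Prox1, and those that fell with both were Gata4, Gata6, Tbx5, Mef2a, Mef2c and Hand2; Tbx20 fell with mOSM. The 10 had a median log2 fold change of -0.12 (mLIF), -0.32 (mOSM) and -0.31 (hlOSM), beside medians within 0.01 of 0 over all genes. Averaged over the conditions, libraries numbered 3 lay 0.042 (log2) above those numbered 1 in nearly every gene, with an SD over genes of 0.0019 where the spread within conditions would give 0.074. Differences between replicate numbers that vary from gene to gene were thus not left in the deposited values, and the 8 residual degrees of freedom of this fit are 2 too many. A fit that takes the replicate number as a block has 6, and its standard errors for the 10 factors were 1.05 to 1.14 times those printed here. In that fit, 3 factors fell with mLIF (2.56% of all genes), 6 fell with mOSM (12.8%) and 6 with hlOSM (16.5%), and Prox1 rose with mOSM and hlOSM; a call lost there is named beside its gene. The 3 comparisons share the PBS libraries and are therefore not independent of one another. In RNA of whole cultures, fewer cells of a type and less RNA per cell cannot be told apart. The study's methods speak of biological replicates in another analysis of these counts, without saying whether the libraries of a condition came from separate animals or preparations, so the p-values measure the spread between these libraries. An exact permutation test of a single gene with 3 libraries against 3 could not go below 0.1, and none was used.

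**Figure D1:**
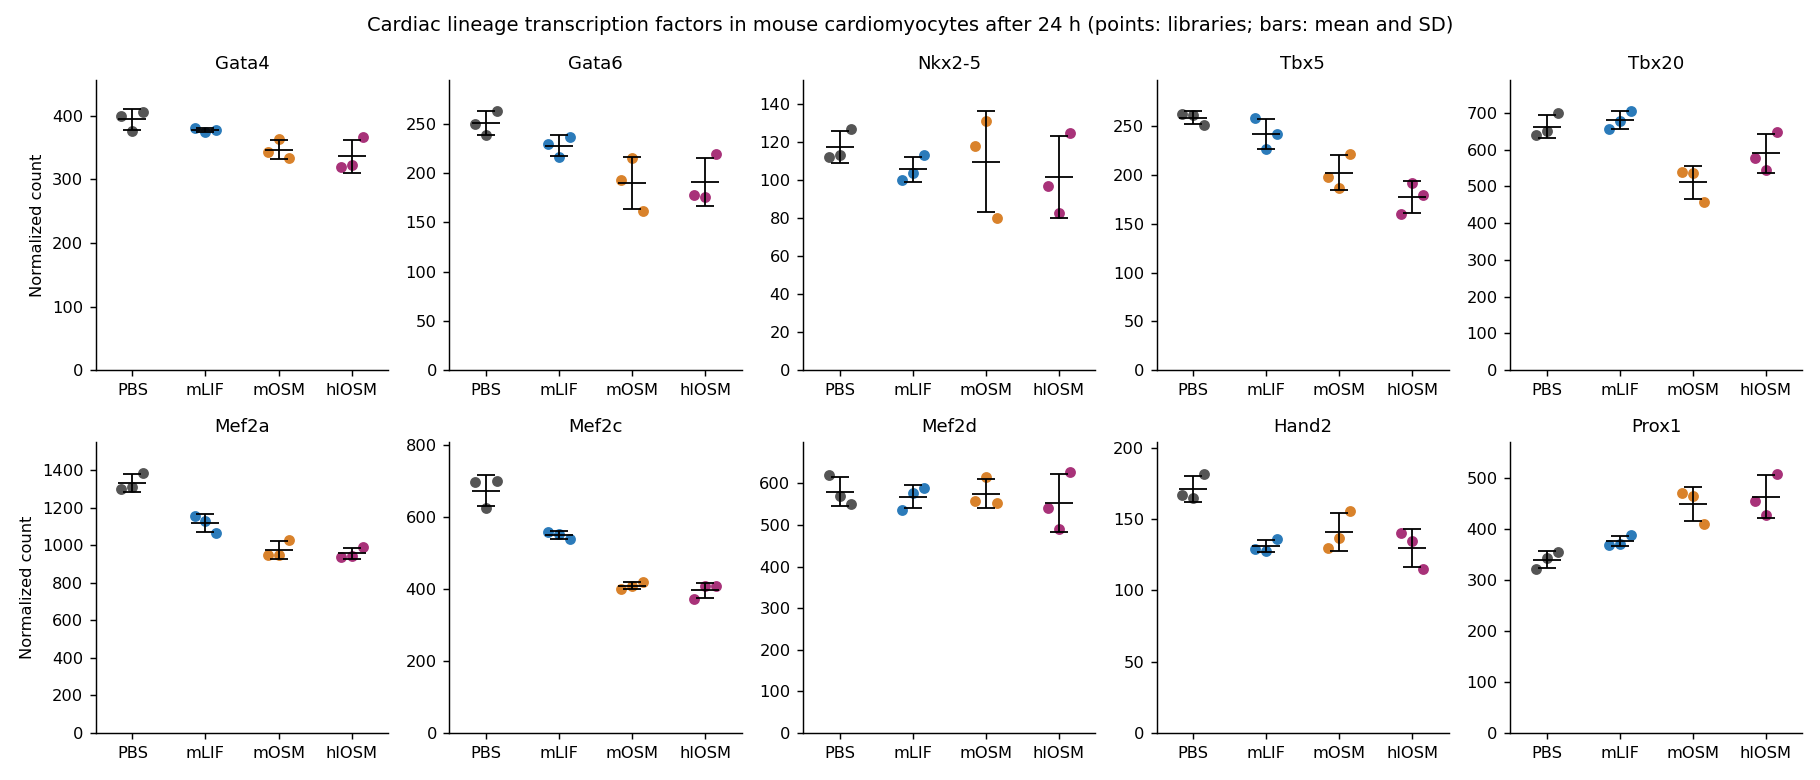
Normalized counts of the 10 factors (vertical axes, from 0) in the 4 conditions (horizontal axes), with a point for each library and bars for the mean and SD of 3 libraries. Mef2c runs from 624 to 701 in PBS and from 373 to 420 with mOSM and hlOSM, Prox1 is higher with mOSM and hlOSM than with PBS, and the points of Mef2d and Nkx2-5 overlap across the conditions.

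Mef2c, a MEF2 gene needed for heart development and for the muscle program, had the largest fall of the 10 with mOSM and with hlOSM. It had 696, 624 and 701 normalized counts in the PBS libraries, 559, 553 and 539 with mLIF, 400, 407 and 420 with mOSM, and after hlOSM 373, 408 and 409. Every mLIF library lay below every PBS library, and every library of mOSM and hlOSM lay below every mLIF library, so that the groups formed 3 separate levels. The log2 fold change against PBS was -0.29 ± 0.059 (SE) with mLIF (adjusted p = 0.00346), -0.72 ± 0.059 with mOSM (adjusted p = 4.83e-09) and -0.76 ± 0.059 with hlOSM (adjusted p = 1.22e-09). In percent, the fall of Mef2c was 18.2 for mLIF, 39.2 for mOSM and 41.0 for hlOSM.

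Mef2a, the MEF2 gene with a leading part in the adult heart, was lower in the same order. The PBS libraries held 1300, 1313 and 1385 normalized counts, the mLIF libraries 1158, 1131 and 1066, the mOSM libraries 946, 946 and 1029, and the hlOSM libraries 940, 941 and 989. No library with a cytokine reached the lowest PBS library, and none with mOSM or hlOSM reached the lowest mLIF library. Mef2a changed by -0.25 ± 0.053 (log2, SE) with mLIF (adjusted p = 0.00391), by -0.45 ± 0.053 with mOSM (adjusted p = 6.83e-07) and by -0.48 ± 0.053 with hlOSM (adjusted p = 2.37e-07).

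Mef2d, whose protein passes on stress signals in the adult heart, differed from its paralogs in that no comparison passed the threshold. Its normalized counts were 620, 571 and 551 in PBS, 537, 577 and 590 with mLIF, 558, 615 and 554 with mOSM, and after hlOSM 542, 491 and 628. The groups overlapped throughout, and the hlOSM libraries were the most scattered of them, holding both the lowest and the highest value. The 95% interval of its log2 fold change was -0.19 to 0.12 with mLIF, -0.17 to 0.14 with mOSM and -0.23 to 0.080 with hlOSM, so that a fall of the size seen in Mef2c lay outside each interval. Taking the MEF2 genes per kb of exon and summing them, the sum was 231 ± 5.95 (SD, n = 3) in PBS, 206 ± 2.29 with mLIF, 189 ± 5.04 with mOSM and 183 ± 13.7 after hlOSM. Mef2d made up 42.0% ± 2.02 (SD) of that sum in PBS, 46.0% ± 2.02 with mLIF, 51.0% ± 2.17 with mOSM and 50.5% ± 2.64 after hlOSM. The share of Mef2c was 18.6% ± 0.825 in PBS and 17.0% ± 0.382 with mLIF. It was 13.8% ± 0.359 with mOSM and 13.8% ± 1.08 after hlOSM. These shares rest on exon lengths of 14.7 kb for Mef2a, 15.7 kb for Mef2c and 5.99 kb for Mef2d. In normalized counts the PBS means were 1333, 674 and 581 in that order, with Mef2d the lowest.

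Of the GATA factors, Gata4, which partners with most of the other factors at cardiac promoters, had 400, 376 and 406 normalized counts in PBS, 380, 374 and 378 with mLIF, 343, 363 and 333 with mOSM, and after hlOSM 319, 323 and 366. Its mLIF values lay within the PBS range apart from a library just below it, and all libraries of mOSM and hlOSM lay under the lowest PBS library. The log2 fold change was -0.061 ± 0.064 (SE) with mLIF (adjusted p = 0.581), -0.19 ± 0.064 with mOSM (adjusted p = 0.0299) and -0.23 ± 0.064 with hlOSM (adjusted p = 0.00643). The call with mOSM depended on single libraries: the adjusted p was 0.0862 without PBS replicate 1, 0.103 without PBS replicate 3, 0.0758 without mOSM replicate 1 and 0.0810 without mOSM replicate 3, within a range of 0.0141 to 0.103 over the 12 libraries left out in turn. With the replicate number as a block it was 0.0605, in a range of 0.0244 to 0.0605 over the other settings.

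Gata6, its close relative, had 250, 239 and 263 normalized counts in PBS, 230, 216 and 237 with mLIF, 193, 215 and 162 with mOSM, and after hlOSM 178, 176 and 219. The mLIF libraries lay just under those of PBS, and every mOSM library lay below every mLIF library. Those of hlOSM overlapped mLIF, with replicate 3 (219) above mLIF replicate 2 (216). The mOSM and hlOSM libraries were the more scattered. With mLIF the change did not pass (log2 -0.14 ± 0.095 SE, adjusted p = 0.374). It fell with mOSM (-0.41 ± 0.095, adjusted p = 0.00209) and with hlOSM (-0.40 ± 0.095, adjusted p = 0.00208). Per kb, Gata4 held 72.4% ± 0.358 (SD, n = 3) of the sum of both GATA genes in PBS and 75.3% ± 1.87 with mOSM, and that sum was 139 ± 5.82 in PBS, 118 ± 7.92 with mOSM and 115 ± 10.4 with hlOSM.

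Both T-box genes fell with mOSM, and with hlOSM only Tbx5 was called. Per kb, Tbx5 held 50.1% ± 1.84 (SD, n = 3) of the sum of Tbx5 and Tbx20 in PBS and 47.7% ± 2.16 with mLIF. The share was 50.4% ± 4.40 with mOSM and 43.5% ± 3.42 with hlOSM. A difference between the T-box genes was not tested. Tbx5, which drives chamber and conduction genes, had 263, 262 and 251 normalized counts in PBS, 258, 227 and 242 with mLIF, 198, 187 and 222 with mOSM, and after hlOSM 160, 192 and 180. The mLIF libraries overlapped those of PBS. All libraries of mOSM and hlOSM lay below both of these groups, and each hlOSM value was under the middle mOSM value. The log2 fold change of Tbx5 was -0.095 ± 0.080 (SE) with mLIF (adjusted p = 0.486), -0.36 ± 0.080 with mOSM (adjusted p = 0.00163) and -0.55 ± 0.080 with hlOSM (adjusted p = 1.24e-05).

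Tbx20, which can activate or repress and is needed in the adult heart for calcium handling genes, had 639, 650 and 699 normalized counts in PBS, 657, 679 and 706 with mLIF, 538, 536 and 458 with mOSM, and after hlOSM 578, 545 and 649. Here the mLIF values ran from within the PBS range to just above it, the mOSM libraries were the lowest, and the hlOSM libraries lay between, with replicate 3 inside the PBS range. Tbx20 changed by 0.039 ± 0.070 (log2, SE) with mLIF (adjusted p = 0.770) and by -0.38 ± 0.070 with mOSM (adjusted p = 2.18e-04). With hlOSM the change of -0.17 ± 0.070 missed the threshold (adjusted p = 0.0607). That side of the threshold rested on single libraries: the adjusted p was 0.0280 without mOSM replicate 3, which alters the shared spread, and 0.0122 without hlOSM replicate 3, with a range of 0.0122 to 0.265 over the libraries left out in turn.

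Nkx2-5, an early marker of the cardiac lineage, had the largest standard error of the log2 fold change among the 10 (0.15). It had 112, 113 and 127 normalized counts in PBS, 100, 104 and 113 with mLIF, 118, 131 and 80 with mOSM, and after hlOSM 97, 83 and 125. A low mOSM library and a high hlOSM library, both replicate 3, gave these groups ranges that covered most of the others. Differences between replicate numbers had been taken out, which ties same-numbered libraries. These libraries therefore do not stand out independently of each other. No comparison passed: the log2 fold change was -0.15 with mLIF (95% interval -0.45 to 0.15, adjusted p = 0.555), -0.12 with mOSM (-0.43 to 0.18, adjusted p = 0.560) and -0.22 with hlOSM (-0.53 to 0.081, adjusted p = 0.244). These intervals are wide enough to hold falls as large as those of Gata4, so a change of that size was not detectable in Nkx2-5 with these libraries.

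Hand2, a factor of the right ventricle and of the cardiac neural crest, was lower with all 3 cytokines. Its normalized counts were 167, 165 and 182 in PBS, 129, 128 and 136 with mLIF, 130, 137 and 156 with mOSM, and after hlOSM 140, 135 and 115. Every library with a cytokine lay below the lowest PBS library, and the cytokine groups overlapped one another. Hand2 changed by -0.38 ± 0.090 (log2, SE) with mLIF (adjusted p = 0.00935), by -0.28 ± 0.090 with mOSM (adjusted p = 0.0203) and by -0.40 ± 0.090 with hlOSM (adjusted p = 0.00133). Its change with mLIF was close to that with hlOSM, and the direct difference of hlOSM from mLIF was -0.016 (95% interval -0.20 to 0.17). Without PBS replicate 3, its highest library, the adjusted p was 0.0524 with mLIF, in a range of 0.00447 to 0.0524 over the libraries left out. With mOSM it was 0.0897 without PBS replicate 3, 0.104 without mOSM replicate 1 and 0.0642 without mOSM replicate 2, in a range of 0.00677 to 0.104.

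Prox1, which in the heart muscle supports the structure of the sarcomere and holds back skeletal muscle genes, was the gene of the 10 that rose. The PBS libraries had 322, 342 and 355 normalized counts, those of mLIF 369, 370 and 387, those of mOSM 470, 465 and 410, and those of hlOSM 454, 426 and 508. Every cytokine library was above every PBS library, and the libraries of mOSM and hlOSM were also above those of mLIF. The log2 fold change was 0.40 ± 0.070 (SE) with mOSM (adjusted p = 1.28e-04) and 0.44 ± 0.070 with hlOSM (adjusted p = 2.89e-05), a level 1.32 and 1.36 times that of PBS. With mLIF the value of 0.14 ± 0.070 did not pass (adjusted p = 0.195); the groups did not overlap, as in 14.7% of all genes, which were higher without overlap.

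**Figure D2:**
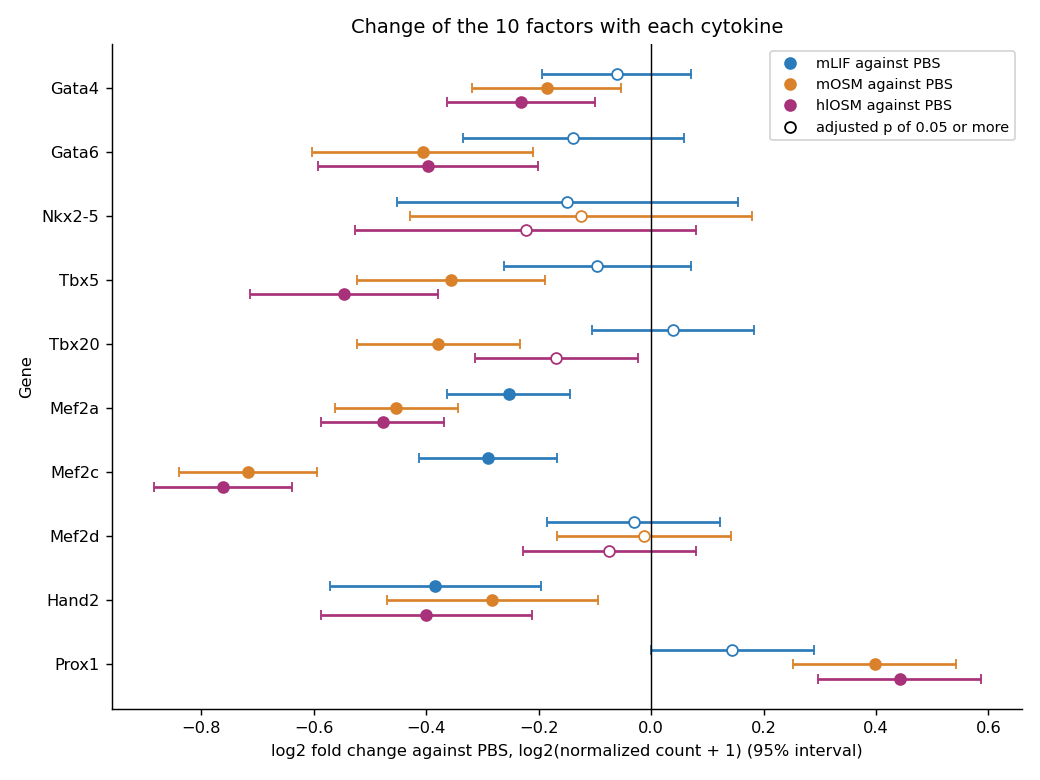
Log2 fold change of the 10 factors (vertical axis) against PBS (horizontal axis, on the log2(normalized count + 1) scale), with a point and 95% interval (fit without the replicate block) for each cytokine and open points for an adjusted p of 0.05 or more. Mef2c lies farthest to the left, at -0.72 with mOSM and -0.76 with hlOSM, Prox1 is to the right of 0 with intervals from 0.25 upward for mOSM and hlOSM, and the intervals of Mef2d and Nkx2-5 cross 0 throughout.

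The cytokines were also compared with one another, since a change that passes with mOSM and not with mLIF is not thereby shown to differ. Between mOSM and mLIF, 4 factors were lower with mOSM (5.76% of all genes) and 1 was higher (6.05%). Mef2c differed by -0.43 ± 0.059 (log2, SE; adjusted p = 2.31e-05), Tbx20 by -0.42 ± 0.070 (adjusted p = 2.07e-04), Tbx5 by -0.26 ± 0.080 (adjusted p = 0.0358), Mef2a by -0.20 ± 0.053 (adjusted p = 0.0129) and Prox1 by 0.25 ± 0.070 (adjusted p = 0.0178). The libraries of mOSM and mLIF did not overlap in any of the 5 genes, nor in Gata4 and Gata6, which were not called; over all genes, 14.1% were lower and 12.9% higher without overlap. The calls of Mef2c and Tbx20 were made with each library left out. Those of the other 3 were made with 8 of the 12 left out: the count of 5 fell to 2 without mLIF replicate 1, to 3 without mLIF replicate 2, to 2 without mOSM replicate 1, and to 3 without mOSM replicate 2. In that last fit Gata6 passed (adjusted p = 0.0182), which had missed the threshold with all libraries (log2 -0.27, adjusted p = 0.0706) and passed also without hlOSM replicate 3 (adjusted p = 0.0382). Tbx5 was lost, besides, without mLIF replicate 3 (adjusted p = 0.0886), with no filter on low values (adjusted p = 0.0550) and with the replicate number as a block (adjusted p = 0.0756), the highest adjusted p of any fit being 0.175. With the libraries of the compared conditions alone, Gata6 passed (adjusted p = 0.0453).

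Between hlOSM and mLIF, 4 factors were lower with hlOSM (9.22% of all genes) and 1 was higher (7.42%), the genes named for mOSM against mLIF. Mef2c differed by -0.47 ± 0.059 (log2, SE; adjusted p = 4.89e-06), Tbx5 by -0.45 ± 0.080 (adjusted p = 3.35e-04), Mef2a by -0.22 ± 0.053 (adjusted p = 0.00437), Tbx20 by -0.21 ± 0.070 (adjusted p = 0.0438) and Prox1 by 0.30 ± 0.070 (adjusted p = 0.00441). Tbx20 was the uncertain call among them. Its adjusted p was 0.0530 without PBS replicate 2, 0.0617, 0.108 and 0.153 without mLIF replicates 1, 2 and 3, 0.121 and 0.209 without hlOSM replicates 1 and 2, 0.0688 with the replicate block or with no filter on low values, and 0.0506 after quantile normalization, in a range of 0.00941 to 0.209 over the libraries left out. Gata4 and Gata6 missed the threshold with all libraries (adjusted p = 0.0738 and 0.0658) and passed without hlOSM replicate 3 (0.0150 and 0.0122) and after quantile normalization (0.0432 and 0.0496). Gata6 passed also without mOSM replicate 2 (0.0438), without mOSM replicate 3 (0.0325) and with the libraries of the compared conditions alone (0.0357).

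Between hlOSM and mOSM, 0 of the 10 factors passed in limma's test, against 14 of 13184 genes (0.106%), all lower with hlOSM. Under the replicate block 0 of the 10 passed, beside 2 genes (0.0152%), also lower with hlOSM. The largest differences were those of Tbx20, with 545 to 649 normalized counts with hlOSM above 458 to 538 with mOSM (log2 0.21, 95% interval 0.065 to 0.35, adjusted p = 0.440), and Tbx5, which was lower with hlOSM (log2 -0.19, interval -0.36 to -0.023, adjusted p = 0.592). For the others the intervals held 0: Mef2c differed by -0.045 (-0.17 to 0.078), Mef2a by -0.025 (-0.13 to 0.084) and Prox1 by 0.044 (-0.10 to 0.19). Nothing here shows that the proteins act alike on these genes, only that differences beyond these bounds were not seen.

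Marker genes of the cell types in the culture moved with the same cytokines. Of 8 cardiomyocyte genes, 5 fell with mLIF (4 under the replicate block), 6 fell with each of the other cytokines, and 0 rose. For this list and those that follow, the shares over all genes were 5.47% risen and 4.44% fallen for mLIF, 15.4% and 15.8% for mOSM, and 18.2% and 19.8% for hlOSM, and under the block 3.39% and 2.56%, 12.5% and 12.8%, and 14.7% and 16.5%. Their summed normalized counts, for the most part those of Ttn, were 47795, 47533 and 49295 in PBS, 42969, 41241 and 41499 with mLIF, 34597, 33466 and 37609 with mOSM, and after hlOSM 34404, 36835 and 35756. Between mOSM and mLIF, 2 of the 8 genes were called, Ttn and Tnnt2, both lower with mOSM (5.76% of all genes). Under the block 1 was called, beside 4.11%. The log2 difference was below 0 in 5 of the 8 and above 0 in 3, Tnni3, Myl2 and Mb. Ryr2, not called, was lower with mOSM without overlap of libraries (log2 -0.14). Between hlOSM and mLIF, 3 of the 8 were lower with hlOSM (9.22% of all genes), and 3 under the block (6.66%). Of 6 smooth muscle and pericyte genes, led by Cspg4, 0 fell with mLIF, 5 with mOSM and all with hlOSM, and their sum was 950, 993 and 1188 in PBS, 933, 882 and 934 with mLIF, 714, 660 and 682 with mOSM, and after hlOSM 608, 626 and 602. The 8 fibroblast genes, led by Col3a1, held 1 that fell with mLIF (0 under the block), 2 that rose and 3 that fell with mOSM, and 3 that rose (2 under the block) and 5 that fell with hlOSM. Their sums overlapped between PBS and each OSM, at 2296 to 2526 in PBS, 2110 to 2251 with mLIF, 2459 to 2885 with mOSM and 2307 to 2540 with hlOSM. Of 5 macrophage and leukocyte genes tested, led by Lyz2, 1 rose with each cytokine and 1 fell with hlOSM; the list summed to 296 to 314 in PBS, 277 to 316 with mLIF, 337 to 381 with mOSM and 311 to 382 with hlOSM. Against mLIF, the smooth muscle list had 5 genes lower with mOSM and 5 with hlOSM (4 under the block), and 0 higher. The fibroblast list had 2 higher and 3 lower with each (2 and 2 under the block), the leukocyte list 1 higher with each. The shares over all genes were 6.05% higher and 5.76% lower with mOSM, and 7.42% and 9.22% with hlOSM. Under the block they were 4.70% and 4.11%, and 5.49% and 6.66%. The part of these cell types in the changes of the 10 factors was not tested.

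Beside the rise of Prox1, endothelial genes are of note, since lymphatic endothelium makes PROX1. Of 8 endothelial genes, led by Kdr, 6 rose with mOSM (15.4% of all genes) and 6 with hlOSM (18.2%; 5 under the block), and with mLIF 0 rose and Pecam1 fell. The sum was 1221, 1262 and 1188 in PBS, 1263, 1201 and 1266 with mLIF, 1471, 1577 and 1700 with mOSM, and after hlOSM 1577, 1477 and 1590. Against mLIF, 4 of the 8 were higher with mOSM (6.05% of all genes) and 4 with hlOSM (7.42%), and 0 were lower. The counts under the block were also 4 and 4, beside 4.70% and 5.49%. Of 5 lymphatic genes, 2 passed the filter, and both rose with mOSM and with hlOSM: Pdpn from 143 ± 19.0 (SD, n = 3) in PBS to 263 ± 33.7 and 256 ± 5.29, and Flt4 from 51.0 ± 6.56 to 72.7 ± 3.51 with mOSM and to 73, 59 and 66 in the hlOSM libraries. With the replicate block Flt4 missed the threshold for hlOSM (adjusted p = 0.0652). Against mLIF both genes were higher with mOSM and with hlOSM, also under the block. The other 3, Lyve1, Reln and Mmrn1, had at most 10 normalized counts in any library, with Lyve1 at 5, 4 and 8 in PBS, 3, 2 and 3 with mOSM, and after hlOSM 2, 4 and 3. Pdpn and Flt4, which rose as Prox1 did, and these 3 belong to the same list, and the part of lymphatic cells in the rise of Prox1 was not tested. Epicardial genes summed to at most 37 in any library and 0 of 5 passed the filter. Schwann cell and neuron genes, led by Ncam1, summed to 260 to 341 in PBS and 257 to 299 with hlOSM, and of 3 tested 1 fell with mOSM (0 under the block) and 1 with hlOSM. The atrial list, led by Nppa, summed to 236 to 242 in PBS and 174 to 175 with hlOSM, and of 2 genes tested 1 fell with mOSM and both with hlOSM.

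**Figure D3:**
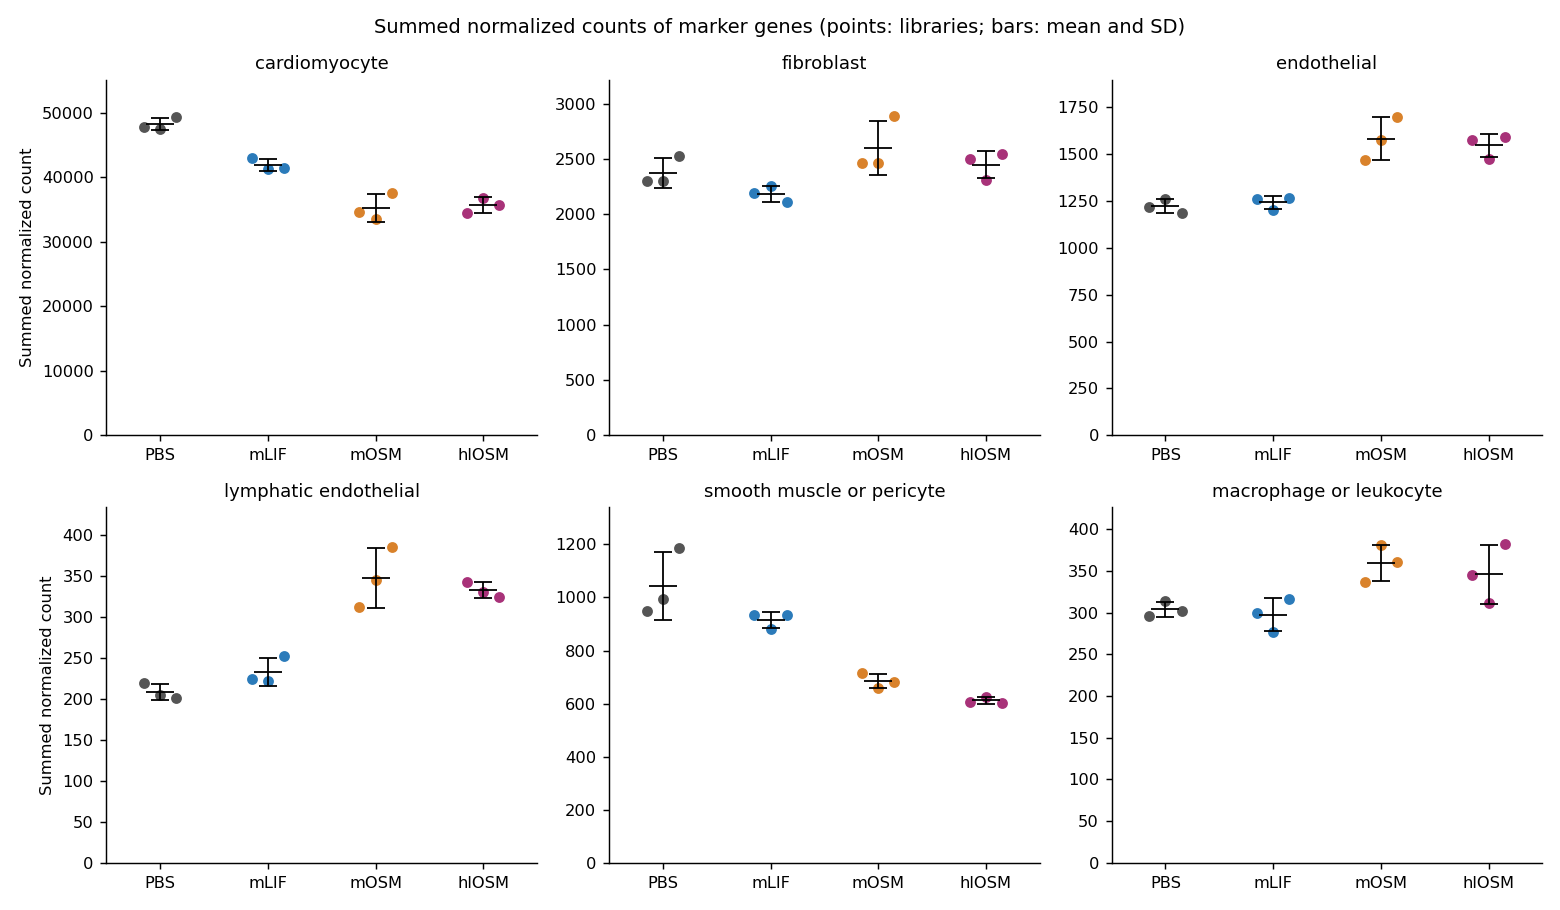
Summed normalized counts (vertical axes, from 0) of marker genes of 6 cell types in the 4 conditions (horizontal axes), with a point for each library and bars for the mean and SD of 3 libraries. The cardiomyocyte sum is lower with mOSM and hlOSM, at 33466 to 37609, than with PBS, at 47533 to 49295, and the endothelial sum is higher, at 1471 to 1700 against 1188 to 1262.

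Other transcription factors and cofactors of the heart were described by a list of 36 genes, of which 30 were tested. With mLIF 1 rose and 5 fell, with mOSM 3 rose and 13 fell, and with hlOSM 1 rose and 15 fell. Under the replicate block the counts were 0 and 1, then 2 and 11, then 1 and 14, and the shares over all genes are those given with the cardiomyocyte markers. The list had a median log2 fold change of -0.069 (mLIF), -0.21 (mOSM) and -0.27 (hlOSM). Meis1, a homeobox gene that stops cell division in cardiomyocytes after birth, rose with every cytokine, from 368 ± 40.7 (SD, n = 3) normalized counts (PBS) to 441 ± 41.0 with mLIF (adjusted p = 0.0340, 0.0569 with the block), 549 ± 32.5 with mOSM (adjusted p = 4.22e-06) and 615 ± 28.8 with hlOSM (adjusted p = 9.67e-08). Zfpm2, which encodes the GATA4 cofactor FOG2, went the other way, from 374 ± 23.7 in PBS to 315 ± 8.51 with mLIF (adjusted p = 0.0237, 0.0590 with the block), 257 ± 12.2 with mOSM (adjusted p = 1.89e-06) and 244 ± 14.2 with hlOSM (adjusted p = 2.08e-07). Irx3, a regulator of the conduction system, fell from 168 ± 22.5 to 108 ± 2.52 with mLIF and 103 ± 6.11 with mOSM. The hlOSM libraries had 104, 106 and 86, and the libraries of the 3 cytokines overlapped. Others named by rule were Cited2, a coactivator of TFAP2, which fell with all 3 cytokines (with mLIF adjusted p = 0.0476, 0.104 with the block), and Nr2f2, Tbx18 and Smarcd3, which fell with mOSM and hlOSM. Of these, Nr2f2 went from 151 ± 13.1 in PBS to 104 ± 11.7 with mOSM and 103 ± 10.3 with hlOSM, and Smarcd3, a subunit of the cardiac chromatin remodeling complex, from 183 ± 5.86 to 151 ± 13.5 and 145 ± 4.62.

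MEF2 proteins are held inactive by class IIa histone deacetylases and released by kinases and calcineurin. Of 15 genes for such regulators, all tested, 1 rose and 1 fell with mLIF, 3 rose and 4 fell with mOSM, and 4 rose and 5 fell with hlOSM (3 and 4 with the replicate block), to be read beside the same shares. The median log2 fold change of these genes was -0.048, -0.12 and -0.11 in that order. The deacetylase genes did not share a direction. Hdac9 fell from 205 ± 12.1 (SD, n = 3) normalized counts (PBS) to 143 ± 14.2 with mOSM (adjusted p = 2.22e-04) and 133 ± 19.4 with hlOSM (adjusted p = 2.17e-05), and Hdac4 from 368 ± 32.7 to 313 ± 26.9 and 301 ± 11.8. Hdac5 fell with all 3 cytokines, from 464 ± 29.3 to 411, 373 and 393 in the mLIF libraries (adjusted p = 0.0189), 393 ± 15.8 with mOSM and 356 ± 16.6 with hlOSM. Hdac7 rose from 317 ± 23.4 to 418 ± 17.5 with mOSM (adjusted p = 1.42e-04) and 433 ± 33.6 with hlOSM (adjusted p = 2.98e-05). Among the kinases, Camk2d fell with mOSM and hlOSM (from 1253 ± 19.1 to 1026 ± 20.5 and 1008 ± 78.3), and Mapk14, the gene for p38 alpha, rose with all 3 cytokines, from 171 ± 1.15 to 212 ± 12.7, 213 ± 16.2 and 215 ± 19.1. Rcan1, an inhibitor and target of calcineurin, rose with mOSM and hlOSM (adjusted p = 0.0282 and 0.0264), and Sik1 fell with hlOSM (adjusted p = 0.0259, 0.0502 with the block).

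Textbook target genes of the cardiac factors made up the last list, with 23 of 24 tested. With mLIF 0 rose and 8 fell (5 with the replicate block), with mOSM 1 rose and 13 fell, and with hlOSM 1 rose and 14 fell, again beside those shares over all genes. The median log2 fold change was -0.17, -0.27 and -0.32 in that order. Of the 24, 6 are also in the cardiomyocyte marker list above and 1 in the atrial list, so these lists are not separate measurements. Ppargc1a, a coactivator of mitochondrial genes and a MEF2 target, fell from 418 ± 4.58 (SD, n = 3) normalized counts (PBS) to 254 ± 8.89 with mOSM (adjusted p = 5.26e-09) and 230 ± 8.66 with hlOSM (adjusted p = 2.05e-10), while 373 ± 9.54 with mLIF did not pass (adjusted p = 0.0821). Kcnj2, the gene of the inward rectifier channel, fell with all 3, from 402 ± 39.2 to 292 ± 6.93 with mLIF, 248 ± 10.1 with mOSM and 235 ± 5.57 with hlOSM. Tnnt2 and Myh7, genes of the sarcomere, and Pln and Ryr2, genes of calcium handling, also fell with every cytokine; under the replicate block the mLIF calls of Pln, Myh7 and Ryr2 were lost (adjusted p = 0.0575, 0.0699 and 0.0670). Gja1 and Slc8a1 fell with mOSM and hlOSM, Gja1 from 2052 ± 81.7 to 1616 ± 139 and 1569 ± 78.4.

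Genes with the pattern most like that of Mef2c and Prox1 were sought by Pearson correlation of log2 values over the 12 libraries, among 6625 genes with a mean of at least 100. The libraries share their treatments, so a high value shows a like order of conditions and no more. For Mef2c, genes among the nearest were Nr1d2 (r = 0.989), Pde7a (0.989), Mbnl1 (0.988) and Cdc42ep3 (0.987). Mbnl1, for a splicing regulator, had means of 2123 normalized counts in PBS, 1783 with mLIF, 1530 with mOSM and 1476 after hlOSM. Among the other factors, Mef2c was most like Mef2a (r = 0.968), then Tbx5 (0.900), Gata4 (0.875) and Gata6 (0.828), and the values nearest 0 were those of Mef2d (0.186) and Nkx2-5 (0.286). For Prox1 the nearest were Nus1 (0.986), Ehd1 (0.976), Irf2bpl (0.974), Pi4k2a (0.965) and Gadd45g (0.965). Gadd45g, a stress gene, had means of 129, 167, 242 and 241 in the same order of conditions. Prox1 ran against Mef2c (r = -0.917), Tbx5 (-0.896) and Mef2a (-0.886).

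Positions are those of the table on mm10 (GRCm38), and all 10 genes had the same start and end in the GENCODE M21 annotation. Mef2c lies on chromosome 13 (ENSMUSG00000005583, 83504034 to 83667080), Mef2a on chromosome 7 (ENSMUSG00000030557, 67231163 to 67372858), Mef2d on chromosome 3 (ENSMUSG00000001419, 88142372 to 88172086), Gata4 on chromosome 14 (ENSMUSG00000021944, 63198922 to 63271692) and Gata6 on chromosome 18 (ENSMUSG00000005836, 11052064 to 11085635). Tbx5 lies on chromosome 5 (ENSMUSG00000018263, 119832668 to 119885219), Tbx20 on chromosome 9 (ENSMUSG00000031965, 24718138 to 24774303), Nkx2-5 on chromosome 17 (ENSMUSG00000015579, 26838664 to 26845009), Hand2 on chromosome 8 (ENSMUSG00000038193, 57320983 to 57324633) and Prox1 on chromosome 1 (ENSMUSG00000010175, 190118035 to 190170714). No exon base of the 10 was shared with another gene on the same strand. On the opposite strand, Hand2 shared 19.6% of its exon bases with other genes, Mef2d 8.87%, Mef2a 2.06%, Prox1 1.59% and Gata6 1.43%. The library kit keeps strand, but whether the counting used it is not given in the sources used here. Reads on more than 1 gene were left out by the authors, so without strand the reads from these shared bases would be missing from both genes.

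Genes that overlap a factor or lie within 5 kb of it were listed for that reason. Hand2os1, the long noncoding RNA transcribed from the strand opposite to Hand2, had 277, 255 and 310 normalized counts in PBS, 275, 279 and 307 with mLIF, 255, 249 and 250 with mOSM, and after hlOSM 250, 269 and 228. With mLIF it stayed in the PBS range while Hand2 itself lay below its own, and 0 of its 3 comparisons with PBS passed (adjusted p = 0.819, 0.137 and 0.0854). Gata6os, opposite to Gata6, fell with hlOSM, from 24.0 ± 3.46 (SD, n = 3) to 15.7 ± 2.31 (adjusted p = 0.0377, 0.0900 with the replicate block). Within Mef2a lie 2 unclassified transcripts on its own strand: Gm44667 fell with mOSM, from 67.0 ± 1.00 to 40.3 ± 3.79 (adjusted p = 1.07e-04), and with hlOSM to 51.3 ± 4.16 (adjusted p = 0.0195, 0.0586 with the block), and Gm44668 fell with mOSM, from 24.7 ± 6.66 to 13.0 ± 2.00 (adjusted p = 0.00876). Lysmd4, which overlaps Mef2a on the opposite strand, rose while Mef2a fell, from 31.7 ± 4.93 in PBS to 44.7 ± 7.64 with mOSM (adjusted p = 0.0199, 0.0537 with the block) and 49.0 ± 4.36 with hlOSM (adjusted p = 0.00281). Gm43050, 646 bases from Tbx5, had 0 comparisons with PBS that passed, and Prox1os, 1700113A16Rik beside Mef2d and Gm29824 beside Tbx20 were below the filter, with means of 1.58, 3.17 and 0.583.

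Promoters were read from RefSeq (GRCm38.p6), from 250 bases before to 50 after a transcript start, for the 7 factors that the table of sequences held, with 10 promoters among them; Gata4, Gata6 and Tbx5 had no entry. Both strands were searched for the letters of sites for STAT proteins (written TTCNNNGAA), which act downstream of these cytokine receptors, and for sites of the factors themselves: AGATAA or else TGATAA for GATA proteins, AAGTG for NK2 proteins, GGTGTG for T-box proteins, CANNTG for E box proteins, and TATTTATA or else TATTTTTA for MEF2 proteins. An NK2 match can lie inside an E box match. The share of all 32851 promoters with a match was 8.30% for the STAT letters, 11.2% and 9.05% for the GATA forms, 46.4% for NK2, 19.0% for T-box, 72.3% for E box, and 1.70% and 2.72% for the MEF2 forms. Among the 10 promoters of the factors, 1 held the STAT letters, 1 each GATA form, 6 NK2, 2 T-box, 5 E box, 0 the former MEF2 form and 1 the latter. A match describes letters, not a bound site. Mef2c had 3 promoters and Prox1 had 2. The STAT letters stood in the promoter at the annotated start of the Mef2c gene and not in its others. They read TTCTTGGAA, from 157 to 149 bases before the start. The MEF2 letters were found in the promoter of Mef2a, as TAAAAATA on the gene's strand across the start itself. Tbx20 and Mef2d had 0 matches. The bases before the start are printed for Mef2c and Hand2, 2 of the 3 factors that fell with every cytokine, and for Prox1, which rose; the promoter of Mef2a, the other of the 3, had 0 matches before its start and is not printed. Each is given along the strand of its gene, with matches to any of the letters in capitals. For Mef2c and Prox1 only the first promoter along the gene is printed. The windows are chr13:83503784-83504033 (plus strand) for Mef2c, chr8:57320733-57320982 (plus strand) for Hand2 and chr1:190170828-190171077 (minus strand) for Prox1. That of Hand2 carried both GATA forms, TGATAA at 215 to 210 and TTATCT at 172 to 167 bases before the start, and that of Prox1 held NK2 and E box letters.
Mef2c: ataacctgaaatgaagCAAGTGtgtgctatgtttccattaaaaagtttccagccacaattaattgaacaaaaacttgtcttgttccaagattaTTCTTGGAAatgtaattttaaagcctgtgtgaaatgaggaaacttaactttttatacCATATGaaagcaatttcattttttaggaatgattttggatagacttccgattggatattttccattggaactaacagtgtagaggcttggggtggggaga
Hand2: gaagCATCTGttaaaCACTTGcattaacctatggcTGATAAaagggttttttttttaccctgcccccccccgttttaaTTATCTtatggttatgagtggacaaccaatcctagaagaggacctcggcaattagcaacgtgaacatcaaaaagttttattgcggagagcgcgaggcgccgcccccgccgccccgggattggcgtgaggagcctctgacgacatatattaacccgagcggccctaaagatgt
Prox1: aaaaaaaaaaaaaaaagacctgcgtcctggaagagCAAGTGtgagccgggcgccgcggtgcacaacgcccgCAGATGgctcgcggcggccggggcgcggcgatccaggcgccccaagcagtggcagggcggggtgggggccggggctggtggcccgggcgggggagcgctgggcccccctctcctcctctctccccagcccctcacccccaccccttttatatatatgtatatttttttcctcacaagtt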

How the data were processed

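RNA of the 12 cultures was sequenced from stranded total RNA libraries. The authors aligned the reads to mm10 with STAR 2.7.7a and counted them per gene with featureCounts 1.6.5, per the submitters' processing notes and the study's methods. The deposited values are scores on a normalized count scale, made equal in scale between libraries and rounded to whole numbers by the authors; the method is not given in the sources used here. The study's methods give an average number of reads per library, but this scale does not show the reads behind a value. Differences between replicate numbers had been taken out of the values, so the replicate block has the fitting degrees of freedom. The main fit has no block and was fixed with an earlier account of these values known. Because the values are normalized and do not show read numbers, no test that models read counts was applied. Values were tested as log2(normalized count + 1) with limma 3.58.1 in R 4.3.3 (linear model, empirical Bayes with a mean-variance trend), two-sided, in a single fit of the 4 conditions over 13184 genes with at least 10 in at least 3 libraries. Calls needed a Benjamini-Hochberg adjusted p under 0.05. Alternatives were other pseudocounts, filters, scalings, a robust fit, the 6 libraries compared alone, a replicate block and each library left out. No 2 libraries held identical values. From each list, genes past the threshold with at least 1 cytokine and a mean of at least 50 were named, up to 8 with the smallest overall p. The members and lists were chosen with earlier results of these data known. Exon lengths are from GENCODE M21, promoters from RefSeq (GRCm38.p6).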

Additional observations from a re-analysis of the deposited data

How the results depend on the processing

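Of 630 recomputed log2 fold changes of the 10 factors against PBS, 610 kept direction and side of the threshold, 9 lost the call, 2 gained it and 9 changed sign. The sign changes concerned Mef2d and Nkx2-5, which were not called. Under quantile normalization Mef2d was at 0.0016 with mLIF and 0.016 with mOSM. With a library left out, Mef2d ranged from -0.068 to 0.017 with mLIF, from -0.061 to 0.036 with mOSM and from -0.17 to 0.0086 with hlOSM, and Nkx2-5 from -0.27 to 0.085 with mOSM. The count of factors called between mOSM and mLIF, 5 with all libraries, ranged from 2 to 6 with a library left out, where fewer libraries enter the fit. Against PBS the counts ranged from 2 to 3 with mLIF, 6 to 8 with mOSM and 7 to 8 with hlOSM. Calls of Mef2a, Mef2c, Tbx5, Gata6 and Prox1 with mOSM and hlOSM were made under every setting and with each library left out.

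Correlations between the deviations of same-numbered libraries lay between -0.52 and 0.022 in 18 pairs, and the number held 5.86% of the variance within conditions, where 25% would fall to it without an effect. Between numbers, genes differed by almost the same amount throughout (SD 0.0017 to 0.0019 on the log2 scale over 6626 genes), so a term for the number had been taken out of the values before deposit. Whether the numbers pair the libraries can therefore not be read from this table. Taking out the term also ties the deviations of same-numbered libraries to one another. A library that stands out, or on which a call depends, is thus not independent of the others with its number. With the replicate block, which leaves 6 residual degrees of freedom in place of 8 and so allows for that term, against PBS 3 factors were called for mLIF, 7 for mOSM and 7 for hlOSM, against mLIF 4 for mOSM (4.70% of all genes higher and 4.11% lower) and 4 for hlOSM (5.49% and 6.66%), and 0 between hlOSM and mOSM. Over all genes the calls with mLIF went from 721 higher and 586 lower to 447 and 337. Those between hlOSM and mOSM went from 14 lower to 2 lower (0.0152% of all genes), with 0 higher in both fits. The study gives an average read number per library, but the reads behind a value cannot be had from this scale. No counting error was therefore attached to genes of low value such as Nkx2-5.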
